A study of Mus musculus with 12 samples.

Results

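TXNIP, its fellow alpha-arrestins ARRDC4 and ARRDC3, and the transcription factor pair MondoA and MLX were followed through RNA-seq of FL5.12 MycER cells. These 5 genes (Txnip, Arrdc4, Arrdc3, Mlxip and Mlx), of 21671 in the expression table, were chosen by name for their place in glucose sensing and not by a threshold on their values. Earlier results of these data were known when the genes were chosen. MondoA, encoded by Mlxip, is a basic helix-loop-helix leucine zipper protein that binds DNA as a heterodimer with MLX. The dimer moves to the nucleus when glucose 6-phosphate accumulates, and Txnip and Arrdc4 are its best known targets. TXNIP and ARRDC4 in turn curb glucose uptake, and TXNIP also binds thioredoxin. ARRDC3 is a related arrestin that brings NEDD4-family ubiquitin ligases to membrane proteins. MLX and its partners form a network beside that of MYC, and MYC and MondoA act beside each other in the control of nutrient use.

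FL5.12 is an interleukin-3-dependent lymphoid precursor line of the BALB/c mouse. The cells carried a retroviral MycER, a MYC protein fused to the hormone-binding domain of the estrogen receptor, which becomes active when 4-hydroxytamoxifen (OHT) is added; the transduced cells were kept as a drug-selected pool and all 4 groups carried the construct. No library had OHT without MycER, so what OHT did of itself cannot be told apart here from what active MycER did. The untreated group received neither compound. The OHT group received 100 nM OHT for 72 h, the IACS group 135 nM IACS-010759, an inhibitor of mitochondrial complex I, for 24 h, and the OHT_IACS group 48 h of OHT priming followed by 24 h of both. Each group had 3 biological replicates, 12 libraries in all, and p-values measure the spread between those cultures. Values are RPKM, reads scaled to the length of the gene and to the reads of the library. The second scaling did not hold alike for all genes: within groups the median slope of log2 reads on log2 library total fell from 1.36 at 0.05 to 0.1 reads per base to 0.18 above 1, so that RPKM tended to be higher in larger libraries for the first and in smaller libraries for the last. Library totals worked out from the RPKM steps ran from 10376530 to 14550158 reads, of which 4199265 to 5762338 lay on genes. Totals differed in part by group. They ran from 13375674 to 14550158 in the untreated group and from 11792608 to 11913079 in OHT_IACS. In replicate order they were 10376530, 13956222 and 10770476 with OHT, and 13076509, 13729131 and 11133789 with IACS. The authors state that cells were passaged in medium with reduced glucose before experiments with the inhibitor. They report that it killed cells in reduced glucose but not in standard high-glucose medium. The glucose level of each library is not given separately, so the values below should not be read as those of standard medium. The part of glucose supply in the results was not tested. Neither glucose uptake nor lactate nor the position of MondoA in the cell was measured in these libraries.

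The line was set against markers of blood cell types. Of 12 B-lymphoid progenitor markers, 4 had a mean of at least 1 RPKM, led by Ptprc (CD45) at 17.0 RPKM. The others were the interleukin-3 receptor gene Il3ra and the B-cell receptor genes Cd79b and Cd79a. Il3ra was at 7.62 RPKM untreated, 5.93 with OHT, 7.67 with IACS and 9.44 with both. Cd79b was at 2.95 untreated, 1.36 with OHT, 3.13 with IACS and 1.43 with both, and Cd79a at 0.994, 1.09, 1.27 and 0.89. The defining genes Pax5, Rag1, Dntt, Il7r and Kit were listed at 0 in all 12 libraries, and Ebf1 and Igll1 had at most 1 read. Of 7 myeloid markers, 3 had a mean of at least 1 RPKM, led by the granule protease gene Prtn3 at 14.3 RPKM, while the neutrophil elastase gene Elane had at most 2 reads. The libraries thus held Ptprc, low levels of the 2 B-cell receptor genes and some myeloid transcripts, but lacked the B-lineage factors named, and the cells are called FL5.12 MycER below.

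The marker lists also moved with treatment. Summed myeloid RPKM was 36.7, 37.8 and 37.4 in the untreated libraries, 19.1, 24.4 and 22.2 with OHT, 33.5, 35.0 and 27.5 with IACS, and 20.7, 19.2 and 19.1 with both. Both OHT groups were lower than both groups without OHT. The B-lymphoid sum was 28.9, 28.3 and 29.8 untreated, 23.4, 25.5 and 25.8 with OHT, 31.1, 31.7 and 29.3 with IACS, and 27.5, 29.1 and 26.6 with both. The erythroid factor gene Klf1 (8.72 RPKM on average) was at 13.3, 12.9 and 13.7 untreated, 9.05, 10.2 and 9.32 with OHT, 7.08, 7.41 and 6.38 with IACS, and 4.92, 5.47 and 4.92 RPKM with both. Of 4 T lymphoid markers only Cd3g reached a mean of 1 RPKM (1.63), Cd3e was listed at 0, and the sum was 2.16, 2.56 and 2.15 untreated, 1.4, 1.23 and 1.3 with OHT, 2.51, 2.50 and 2.46 with IACS, and 1.86, 1.87 and 1.96 with both. The part of these shifts in the results on the 5 genes was not tested; in bulk RNA, fewer cells of a type and less RNA per cell cannot be told apart.

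The promoters are shown first, since Txnip and Arrdc4 are textbook targets of one factor pair but differed in whether they gave any reads. RefSeq windows of 300 bases (250 before to 50 after the gene start, build GRCm38.p6) were found for all 5 genes, with 3 windows for Arrdc3. They were searched on both strands for the E-box CACGTG, for the CCAAT box (CCAAT, or ATTGG on the other strand), and for the carbohydrate response element consensus of 2 E-box-like elements of 6 bases with 5 bases between them. The search that allowed 1 mismatch in each element was added after the sequences were seen. The Txnip window lies at chr3:96557707-96558006 (plus strand), the Arrdc4 window at chr7:68749189-68749488 (minus strand) and the first Arrdc3 window at chr13:80883134-80883433 (plus strand). Capitals mark the matches, and each sequence runs 5′ to 3′ along the gene's strand.
Txnip: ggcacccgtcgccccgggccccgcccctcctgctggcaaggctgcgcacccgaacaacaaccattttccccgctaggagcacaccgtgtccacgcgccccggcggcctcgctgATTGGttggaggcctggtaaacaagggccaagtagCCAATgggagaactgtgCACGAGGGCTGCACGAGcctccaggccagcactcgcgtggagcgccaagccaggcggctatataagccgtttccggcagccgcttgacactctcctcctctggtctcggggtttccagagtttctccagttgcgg
Arrdc4: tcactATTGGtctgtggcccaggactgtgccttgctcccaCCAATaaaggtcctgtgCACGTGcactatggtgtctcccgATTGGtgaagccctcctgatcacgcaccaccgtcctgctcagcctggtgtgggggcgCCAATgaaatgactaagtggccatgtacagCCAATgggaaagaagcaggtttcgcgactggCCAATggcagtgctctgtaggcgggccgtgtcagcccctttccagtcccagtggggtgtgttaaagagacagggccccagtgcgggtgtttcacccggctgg
Arrdc3: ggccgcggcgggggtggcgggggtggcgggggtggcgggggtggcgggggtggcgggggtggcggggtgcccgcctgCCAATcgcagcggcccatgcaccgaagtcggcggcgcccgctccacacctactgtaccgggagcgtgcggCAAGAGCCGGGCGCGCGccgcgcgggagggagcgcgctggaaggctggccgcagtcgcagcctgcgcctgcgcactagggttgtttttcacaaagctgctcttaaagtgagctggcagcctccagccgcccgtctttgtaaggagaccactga

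The Txnip window held no E-box, 2 CCAAT boxes (starting 137 and 102 bases before the gene start) and, 85 bases before the start, 1 match to the carbohydrate response element with the mismatches allowed. The Arrdc4 window held 1 E-box 193 bases before the start and 6 CCAAT boxes. In all 32851 promoter windows of this length, 7.15% held an E-box, 37.4% at least 1 CCAAT box, 11.7% at least 2 and 0.0791% at least 6. The carbohydrate response element consensus was matched exactly in 0.119% of windows and in none of the 5 genes' windows. With up to 1 mismatch in each element it was matched in 16.6%, so that looser pattern is common. The Arrdc3 match (103 bases before the start) had 1 mismatch in each element. The Txnip match had 1 mismatch, in its second element only, and the share of windows with so close a match was not counted. Mlx held an E-box 40 bases before its start (chr11:101087040-101087339, plus strand) and 2 CCAAT boxes. Mlxip had 2 CCAAT boxes and no E-box (chr5:123394548-123394847, plus strand). The second Arrdc3 window, which overlaps the first, held 1 CCAAT box and 1 carbohydrate response element match with the mismatches. The third Arrdc3 window held no match to any of these motifs. A match describes the letters of the window and no binding was measured.

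**Figure D1:**
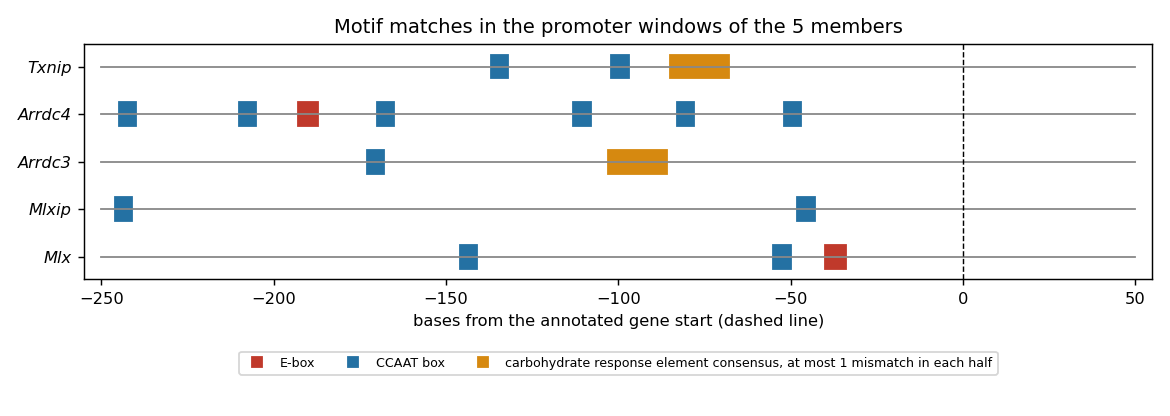
Motif matches in the 300-base promoter window of each of the 5 genes (first window for Arrdc3), by distance in bases from the annotated gene start. Red bars are E-boxes, blue bars CCAAT boxes and orange bars carbohydrate response element matches with 1 mismatch allowed in each element; Arrdc4 shows 6 CCAAT boxes and an E-box, and Txnip 2 CCAAT boxes and the orange match.

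Arrdc4 gave nothing to compare. It was listed at 0 in all 12 libraries, with 0 reads among 61436205 on genes. At the longest annotated transcript length, 3 reads would have stood for 0.0528 to 0.0740 RPKM in a library and 0.0051 RPKM over the 12 together, limits that cover counting error only. A fold change was therefore not computed for this MondoA target. Of 81 ribosomal protein genes, 2 (Rpl10l and Rps4l) were also listed at 0. The other 4 genes were at 1 RPKM or more in every library and were tested. Averaged over the 12 libraries Txnip stood at 27.6 RPKM, above 90.3% of the 15451 genes with any read, Mlx at 17.2 RPKM (82.2%), Mlxip at 4.81 RPKM (55.6%) and Arrdc3 at 2.99 RPKM (48.3%). ChREBP (Mlxipl), the MondoA paralogue of liver and fat, had at most 2 reads in any library.

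Txnip was highest with OHT alone and lowest with IACS alone. Its RPKM was 26.6, 27.2 and 28.1 in the untreated libraries, 36.3, 36.2 and 38.7 with OHT, 22.5, 23.5 and 19.8 with IACS, and 24.0, 23.9 and 23.9 with both. The 3 OHT libraries stood above all others and the 3 IACS libraries below all others, and no groups overlapped. The order of the means was OHT, untreated, OHT_IACS and IACS, at 37.1 ± 1.4, 27.3 ± 0.761, 23.9 ± 0.0669 and 21.9 ± 1.94 RPKM (SD, n = 3 each). Within that order the last step, from OHT_IACS down to IACS, did not pass the test, and OHT_IACS against untreated was not tested.

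Arrdc3 ran the other way. Its RPKM was 2.66, 2.76 and 2.33 untreated, 1.92, 1.94 and 1.998 with OHT, 4.58, 4.76 and 4.74 with IACS, and 2.98, 2.67 and 2.52 with both. The IACS libraries were the highest and the OHT libraries the lowest, while OHT_IACS and untreated overlapped. The means were 4.69 ± 0.103 with IACS, 2.72 ± 0.239 with both, 2.58 ± 0.224 untreated and 1.95 ± 0.0420 RPKM with OHT (SD, n = 3 each). Over the 12 libraries the log2 values of Txnip and Arrdc3 had a Pearson r of -0.86 and a Spearman rho of -0.89, a description of libraries that fall into 4 treatment groups.

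The MondoA gene Mlxip had higher means in the 2 OHT groups. Its RPKM was 3.90, 4.20 and 4.10 untreated, 4.35, 6.25 and 4.98 with OHT, 3.88, 3.85 and 4.58 with IACS, and 6.38, 5.76 and 5.54 with both. OHT replicate 2 stood well above the other OHT libraries, so that the OHT and OHT_IACS groups overlapped, as did untreated and IACS; IACS replicate 3 was also above OHT replicate 1. Mlx, its partner, was 20.0, 17.8 and 18.9 RPKM untreated, 17.3, 18.2 and 17.2 with OHT, 18.8, 17.2 and 16.6 with IACS, and 15.2, 14.4 and 15.1 with both. Only the OHT_IACS libraries were set apart, below the other 9. Mlx shares exon sequence with Psmc3ip on the other strand, and the use of strand in the counting is not given in the sources used here. Psmc3ip had means of 19.9, 16.9, 17.6 and 15.6 RPKM in the same 4 groups. How far reads on the shared sequence entered the Mlx values was not tested. Txnip and Mlxip overlap the exons of Gm15441 and Gm15747 on the other strand in the same way, and those transcripts were not analysed here.

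**Figure D2:**
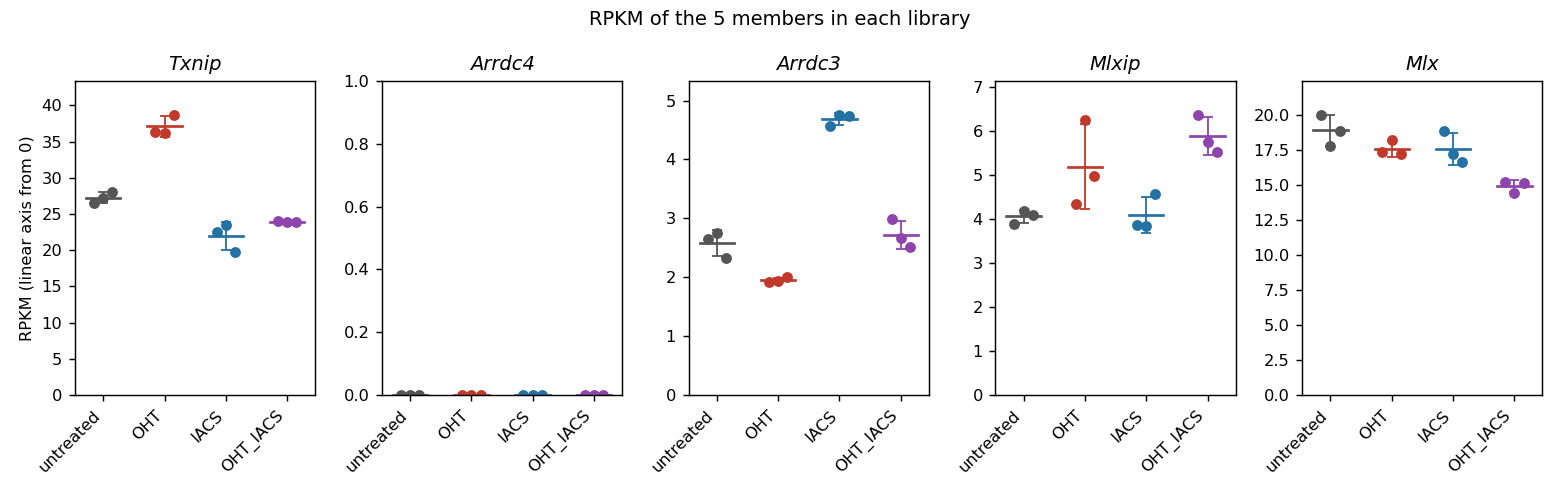
RPKM of the 5 genes in each of the 12 libraries on linear axes from 0, with a scale of its own for each gene; points are libraries, long bars group means and whiskers SD (n = 3). Txnip is highest in the OHT group (37.1 RPKM) and Arrdc3 in the IACS group (4.69 RPKM), and Arrdc4 is at 0 throughout.

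OHT against untreated shows the difference with OHT in these MycER cells, without the inhibitor. Txnip rose 1.34-fold (log2 fold change 0.42, 95% interval 0.31 to 0.53, limma adjusted p = 3.5e-05) and Arrdc3 fell to 0.756 of its untreated level (log2 -0.40, -0.60 to -0.21, adjusted p = 0.0042). Mlxip rose 1.24-fold (log2 0.31, 0.07 to 0.55, adjusted p = 0.044). Mlx was 0.917 of untreated (log2 -0.12, -0.244 to -0.004, adjusted p = 0.097) and did not pass. In Txnip, Arrdc3 and Mlxip every OHT library stood on the same side of every untreated library, and so it was in Mlx on the scaled values tested, though not in RPKM as deposited. So 3 of the 4 tested genes passed an adjusted p of 0.05, beside 36.4% of the 9745 genes tested (18.2% higher and 18.2% lower). The Mlxip call is the weak one and was lost in 13 of 23 alternatives: without OHT replicate 2 its log2 difference was 0.18 (adjusted p = 0.17), and with the replicate block, which treats equal replicate numbers as pairs, its adjusted p was 0.056.

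The treatment markers in this comparison, from a list chosen with earlier results of these data known, ran as follows. Endogenous Myc, which active MycER is known to repress, fell to 0.571 of untreated (36.3 ± 0.779 against 21.0 ± 1.60 RPKM, SD, n = 3, adjusted p = 1.7e-07). Of the 9 genes tested in the list of treatment checks, 7 were called where 36.4% of all genes were: 5 rose, 3 of them genes of the stress response, Trib3 (log2 0.68), Asns (asparagine synthetase, 0.33) and Ddit3 (0.22), and 2 fell, Myc and Atf5 (-0.40). Of the 4 MYC targets in the list Ncl (nucleolin, log2 0.31) rose, Odc1 (ornithine decarboxylase, 0.23, adjusted p = 0.049) barely passed, and Cad (adjusted p = 0.30) and Nop56 (adjusted p = 0.091) did not. The Odc1 libraries overlapped, and its call was lost in 16 of 23 alternatives, 10 of them fits without 1 library; with the log2 library total in the fit its difference was 0.02. The Atf5 call was lost in 8 of the 23, over which its log2 difference ran from -0.57 to -0.12, and the Ddit3 call in 3.

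IACS against untreated asks the same of complex I inhibition in cells without OHT. Txnip fell to 0.788 of untreated (log2 -0.34, -0.45 to -0.23, adjusted p = 0.00063), with all 3 IACS libraries below all untreated ones. Arrdc3 rose 1.76-fold (log2 0.81, 0.62 to 1.01, adjusted p = 9.1e-05), with all 3 above. By size the Arrdc3 change ranked 124 among the 9745 genes. Mlxip (log2 -0.02, -0.26 to 0.22, adjusted p = 0.93) and Mlx (log2 -0.13, -0.25 to -0.01, adjusted p = 0.13) did not pass, and their libraries overlapped. That is 2 of 4 tested genes, beside 15.9% of all genes (8.15% higher and 7.74% lower). The share of all calls that were higher was 51.3% here and 64.9% with the RPKM left as deposited; the Txnip and Arrdc3 calls held on both scales.

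OHT_IACS against OHT asks the same in cells primed with OHT, and shares no library with the comparison before it. Txnip fell to 0.646 of its OHT level (log2 -0.63, -0.74 to -0.52, adjusted p = 3.1e-06), its largest difference in any comparison, and ranked 294 of 9745 by size. Arrdc3 rose 1.37-fold (log2 0.46, 0.26 to 0.66, adjusted p = 0.0037). Mlx fell to 0.851 of its OHT level (log2 -0.23, -0.35 to -0.11, adjusted p = 0.0095). In these 3 genes the groups did not overlap. Mlxip did not pass (log2 0.19, -0.05 to 0.43, adjusted p = 0.23), though without OHT replicate 2 it did (log2 0.32, adjusted p = 0.03). Here 3 of 4 tested genes passed, beside 23.7% of all genes (11.9% higher and 11.8% lower).

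OHT_IACS against IACS gives the difference with OHT in cells that all received the inhibitor. Arrdc3 fell to 0.590 of its IACS level (log2 -0.76, -0.96 to -0.56, adjusted p = 5.5e-05) and Mlxip rose 1.44-fold (log2 0.52, 0.28 to 0.76, adjusted p = 0.0038). Mlx fell to 0.855 (log2 -0.23, -0.35 to -0.11, adjusted p = 0.0089). Txnip was 1.1-fold higher (log2 0.13, 0.02 to 0.24, adjusted p = 0.07), with every OHT_IACS library above every IACS library, and did not pass; it passed without IACS replicate 2 (log2 0.175, adjusted p = 0.038) or without OHT replicate 2 (log2 0.135, adjusted p = 0.048). Again 3 of 4 tested genes passed, beside 26.5% of all genes (12.3% higher and 14.2% lower). This comparison shares its OHT_IACS libraries with the one before.

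Whether OHT changed the response to IACS was tested as the interaction, the IACS difference with OHT minus the IACS difference without it. For Txnip it was -0.29 on the log2 scale (-0.44 to -0.13, adjusted p = 0.14) and for Arrdc3 -0.36 (-0.64 to -0.08, adjusted p = 0.30). Mlxip gave 0.21 (-0.13 to 0.55, adjusted p = 0.60) and Mlx -0.10 (-0.27 to 0.07, adjusted p = 0.61). None of the 4 passed after adjustment, where limma called 14 of 9745 genes (0.144%) and 1240 had an unadjusted p under 0.05, Txnip and Arrdc3 among them. The larger drop of Txnip in primed cells is thus not shown to differ from that in unprimed cells.

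**Figure D3:**
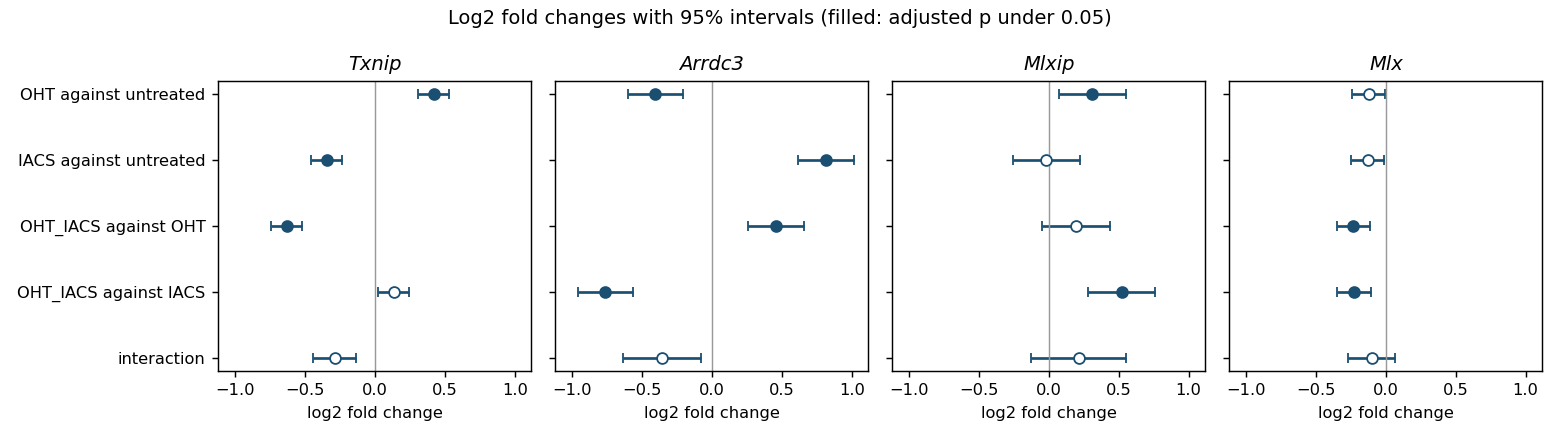
Log2 fold changes (x axis) of Txnip, Arrdc3, Mlxip and Mlx in the 4 comparisons and the interaction (y axis), with 95% intervals from limma over 12 libraries; filled points have an adjusted p under 0.05. Txnip and Arrdc3 lie on opposite sides of 0 in each of the 4 comparisons, and all 4 interaction points are open.

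The other alpha-arrestins did not share one course. Of the 6 genes in the family 4 were tested, and Arrdc5 had 1 read in 1 library. With IACS in cells without OHT, Arrdc3 rose and 3 fell: Txnip, Arrdc1 (log2 -0.26, adjusted p = 0.021) and Arrdc2 (log2 -0.28, adjusted p = 0.023); the family's median log2 difference was -0.27 beside 0.004 over all genes. The Arrdc1 call was lost without IACS replicate 3 (log2 -0.18, adjusted p = 0.084), untreated replicate 1 (adjusted p = 0.053) or untreated replicate 3 (adjusted p = 0.091), with RPKM as deposited (0.064) and with the library total as covariate (0.06). The Arrdc2 call was lost without IACS replicate 3 (log2 -0.21, adjusted p = 0.094), untreated replicate 1 (adjusted p = 0.093) or untreated replicate 2 (adjusted p = 0.068), with RPKM as deposited (0.068) and with the library total (0.069). Of all genes tested 15.9% were called with IACS alone, 23.7% in OHT_IACS against OHT, 36.4% with OHT and 26.5% in OHT_IACS against IACS. In OHT_IACS against OHT Arrdc3 rose and Txnip fell in the main fit, with a median of -0.13 beside -0.01. Arrdc2 (log2 -0.21, limma adjusted p = 0.068) did not pass there. It was called lower in 4 of 23 alternatives, the replicate block among them (adjusted p = 0.021). In OHT against untreated 1 rose and 1 fell (median 0.003 beside 0.013). Arrdc1 and Arrdc2 did not pass with OHT, but each was called in 2 of 23 alternatives. In OHT_IACS against IACS Arrdc2 rose (log2 0.25) and Arrdc3 fell (median 0.09 beside -0.003). That Arrdc2 call was lost in 6 of 23 alternatives, among them RPKM as deposited (adjusted p = 0.057), voom (0.051) and 3 fits without 1 library (up to 0.1).

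Among MLX and its partners, the repressors MXD4, MXD1 and MNT compete with MondoA or MYC for dimer partners. Of 6 genes 4 were tested. Mnt was 2.95 ± 0.146 RPKM untreated and 2.30 ± 0.0715 with IACS (SD, n = 3) and fell (log2 -0.37, adjusted p = 0.048), but 13 of 22 alternatives lost that call, 8 of them fits without 1 library, with adjusted p up to 0.13. Mxd4 was 3.45 ± 1.02 RPKM with OHT and 5.23 ± 0.0292 with both (SD, n = 3) and rose (log2 0.63, adjusted p = 0.036); 7 of 23 alternatives lost the call, 4 of them fits without 1 library, with log2 differences from 0.36 to 0.81 over all 23. The list had 0 higher and 1 lower with IACS alone (median -0.14), 1 higher and 1 lower in OHT_IACS against OHT (0.08), 1 and 0 in OHT against untreated (-0.05), and 2 and 1 in OHT_IACS against IACS (0.42), beside all-gene medians of 0.004, -0.01, 0.013 and -0.003 and shares of all genes called of 15.9%, 23.7%, 36.4% and 26.5%. Of these last 3 calls, the rise of Mnt (log2 0.355, adjusted p = 0.04) was lost in 12 of 22 alternatives. Of those 12, 8 were fits without 1 library (adjusted p up to 0.17). Mxd4 in OHT_IACS against IACS (log2 0.49, limma adjusted p = 0.09) did not pass. It was called higher in 3 of 23 alternatives, the replicate block among them (adjusted p = 0.03). The interaction called 0 genes of the arrestin and MLX lists in limma (2 and 1 with an unadjusted p under 0.05) and 0 with voom.

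Thioredoxin, the partner that TXNIP binds, and the enzymes around it were all tested. In either IACS comparison 0 of these 9 genes passed in limma, 0 had an unadjusted p under 0.05 and 0 passed with voom on the recovered reads, and the medians were 0.02 and -0.02; of all genes 15.9% and 23.7% passed. With OHT, where 36.4% of all genes passed, 2 rose, Txn1 and mitochondrial Txn2 (log2 0.31), and glutaredoxin (Glrx, log2 -0.32) fell, and in OHT_IACS against IACS, where 26.5% passed, Txn2 rose and Glrx fell. The 2 Glrx calls were lost in 3 and 5 of 23 alternatives. Txn1 was 30.0 ± 2.19 RPKM untreated and 38.2 ± 5.97 with OHT (SD, n = 3, log2 0.32, adjusted p = 0.035), and these libraries overlapped. Txn1 had between 426 and 487 reads in every library whatever the library total, and with the log2 total in the fit its OHT difference was 0.01 (adjusted p = 0.85). In all, 8 of 23 alternatives lost the call, 4 of them fits without 1 library (untreated replicates 2 or 3, OHT replicates 1 or 3), with adjusted p up to 0.13 in those 4.

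Of 9 NEDD4-family ligase genes, whose WW domains bind the arrestin tails, 6 were tested. In both IACS comparisons and in OHT_IACS against IACS 0 passed in the main limma fit, with medians of 0.09, 0.06 and -0.05. Of all genes, 15.9%, 23.7% and 26.5% passed. In the list 2, 2 and 1 had an unadjusted p under 0.05, and voom called 1 in each. Nedd4 with IACS alone (log2 0.20, limma adjusted p = 0.073) was called in 6 of 23 alternatives, the replicate block among them. Smurf1 in OHT_IACS against IACS (log2 0.20, limma adjusted p = 0.066) was also called in 6. With OHT, where 36.4% of all genes passed, Smurf2 alone rose in limma (log2 0.20, adjusted p = 0.043) and voom called 2. The Smurf2 call was lost in 8 of 23 alternatives, 5 of them fits without 1 library (adjusted p up to 0.14).

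Glucose carriers and hexokinases, the proteins whose products MondoA senses, had more calls with OHT than with IACS, as did the genes at large. Of 16 genes 14 were tested: 6 rose and 4 fell with OHT (median 0.14 beside 0.01), 1 rose and 1 fell with IACS (0.01), 2 rose and 3 fell in OHT_IACS against OHT (0.03), and 5 rose and 2 fell in OHT_IACS against IACS (0.07). Of all genes tested, 36.4%, 15.9%, 23.7% and 26.5% were called in these comparisons. Of the 14, 3 (Hkdc1, Slc2a6 and Slc2a9) reached 1 RPKM in no library of 2 of the groups and so passed the filter through the groups where they were high; with no filter the numbers that rose and fell in these 4 comparisons were the same. The carrier gene Slc2a1 (GLUT1), a protein TXNIP is known to draw from the cell surface, was 23.6, 22.6 and 25.1 RPKM untreated, 29.7, 31.9 and 31.6 with OHT, 20.9, 20.0 and 19.7 with IACS, and 25.8, 25.8 and 26.5 with both. It moved as Txnip did, up with OHT (log2 0.36, adjusted p = 4.2e-05), down with IACS (-0.26, adjusted p = 0.0018) and down in OHT_IACS against OHT (-0.25, adjusted p = 0.0017), and it also rose in OHT_IACS against IACS (0.37, adjusted p = 5.2e-05). Its interaction was 0.01 (-0.13 to 0.15, adjusted p = 0.95). Slc2a3 (GLUT3) rose with OHT (log2 0.26) and fell in OHT_IACS against OHT (-0.19, adjusted p = 0.01), and gave -0.03 (adjusted p = 0.66) with IACS alone.

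Hexokinases parted by gene. Hk2 was 14.5 ± 0.754 RPKM untreated, 18.8 ± 2.15 with OHT, 14.8 ± 1.05 with IACS and 19.0 ± 1.35 with both (SD, n = 3); it rose with OHT on either background (log2 0.35 and 0.36) and gave 0.01 (adjusted p = 0.97) and 0.02 (adjusted p = 0.91) for IACS. Hk3, the hexokinase of myeloid cells, was 15.3 ± 0.744 untreated, 3.61 ± 0.168 with OHT, 17.4 ± 1.70 with IACS and 8.42 ± 1.08 with both (SD, n = 3). It rose in OHT_IACS against OHT (log2 1.20, adjusted p = 4.7e-07) and passed the interaction (log2 1.04, 0.80 to 1.28, adjusted p = 0.0015); the myeloid marker sum given above also fell with OHT but did not rise in OHT_IACS against OHT, and its part in these results was not tested. Hkdc1 rose with OHT from 0.182 ± 0.0470 to 1.55 ± 0.0961 RPKM (SD, n = 3). It passed the filter mainly through the OHT libraries, and with no filter the rise had an adjusted p of 4.1e-06. Its drop in OHT_IACS against OHT (log2 -0.69, adjusted p = 0.042) held with no filter (0.031) but was lost in 11 of 22 alternatives, 6 of them fits without 1 library (adjusted p up to 0.14). Pgm1, phosphoglucomutase, rose with IACS in primed cells (log2 0.25, adjusted p = 0.002) and, less firmly, in unprimed cells (0.15, adjusted p = 0.034, lost in 10 of 23 alternatives, 5 of them fits without 1 library, with adjusted p up to 0.13).

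Other genes of the carbohydrate response were split. Of 21 genes 12 were tested. Klf10, a zinc finger repressor induced by glucose, was 5.99, 6.03 and 6.09 RPKM untreated, 5.41, 6.68 and 5.43 with OHT, 3.34, 3.71 and 2.51 with IACS, and 3.31, 2.67 and 2.76 with both. Every library with IACS was below every library without it. The drop was to 0.519 of untreated (log2 -0.95, -1.21 to -0.69, adjusted p = 0.00022) and to 0.508 of OHT (log2 -0.98, -1.24 to -0.72, adjusted p = 0.00011), with 0.95 of untreated left by OHT alone (adjusted p = 0.65). Elovl6, a fatty acid elongase, fell in both (log2 -0.46 and -0.49). The fatty acid synthase gene Fasn fell with IACS alone (log2 -0.29, adjusted p = 0.025), a call lost without any of the untreated replicates 1, 2 and 3 or IACS replicates 1 and 2 (adjusted p up to 0.099), and gave -0.15 (adjusted p = 0.19) in primed cells. The clock and stress repressor gene Bhlhe40 rose in both (0.32 and 0.17), the second time at an adjusted p of 0.041 that 13 of 23 alternatives lost, 8 of them fits without 1 library (up to 0.16). In number, 1 rose and 3 fell with IACS (median -0.07 beside 0.004), and 1 rose and 2 fell in OHT_IACS against OHT (-0.04 beside -0.01). With OHT 4 rose and 4 fell (0.10), and in OHT_IACS against IACS 5 rose and 3 fell (0.07). In that order, 15.9%, 23.7%, 36.4% and 26.5% of all genes tested were called. Of the falls with OHT, Pfkfb2 was lost in 14 of 22 alternatives and Bhlhe40 in 10 of 23, both without untreated replicate 1. Of the rises in OHT_IACS against IACS, Acaca was lost in 4 of 23 and Acly in 3, both without IACS replicate 1.

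**Figure D4:**
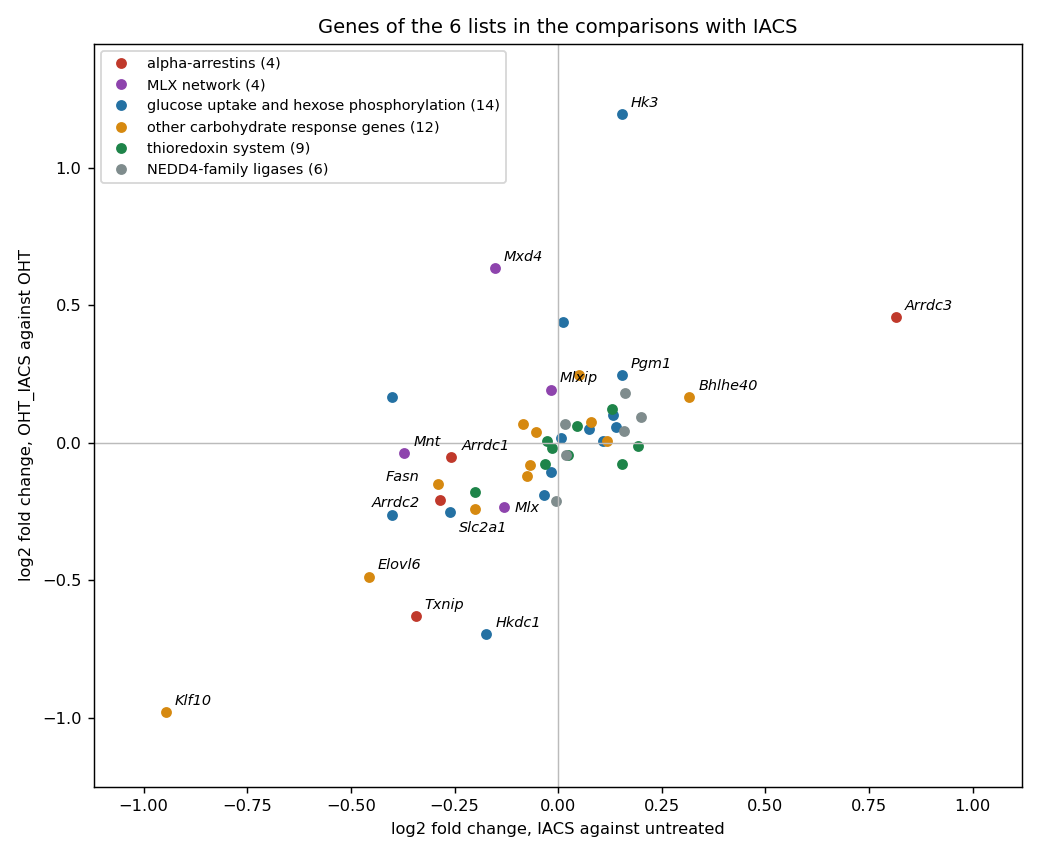
Log2 fold change of each tested gene of the 6 lists with IACS alone (x axis) and in OHT_IACS against OHT (y axis), which share no library; colours mark the lists and names those given in the text. Klf10, Txnip, Elovl6 and Slc2a1 lie in the lower left, Arrdc3 and Bhlhe40 in the upper right, and Hk3 stands high on the y axis alone.

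Complex I inhibition is known to set off the integrated stress response. Trib3 and Atf5, 2 of its genes in the list of treatment checks, had the largest changes of all tested list genes in both IACS comparisons. Chac1, of the same list, had at most 1 read in any library and was not tested. Trib3 rose 3.89-fold with IACS (5.73 ± 0.464 to 23.0 ± 0.838 RPKM, SD, n = 3, adjusted p = 7.8e-08) and 2.90-fold in OHT_IACS against OHT (adjusted p = 5.7e-07). Atf5 rose 3.36-fold and 3.95-fold, and Ddit3 (CHOP) 2.24-fold and 1.69-fold. Of the 9 genes tested in the treatment list, 5 rose and 0 fell in each IACS comparison, Myc included (log2 0.34 and 0.53), beside 8.15% and 11.9% of all genes higher and 7.74% and 11.8% lower. That list was chosen with earlier results of these data known, so these numbers are no independent test.

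The 5 genes whose log2 values were most like those of Txnip over the 12 libraries were Crbn (Pearson r = 0.99, Spearman rho = 0.98), Srl (0.98 and 0.96), Dnaaf2 (0.98 and 0.97), Aifm1 (0.98 and 0.95) and Trim59 (0.97 and 0.94). All 5 had their highest group mean with OHT and their lowest with IACS, Trim59 for instance at 6.32 and 3.06 RPKM, with 4.49 untreated and 3.47 with both. With 12 libraries in 4 groups these values describe the order of the groups. No likeness to Arrdc4 could be computed, since it was at 0 throughout.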

How the data were processed

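RNA was depleted of ribosomal RNA before sequencing. According to the submitters' processing notes the authors aligned reads with TopHat2 2.0.8 to mm9, counted them with featureCounts 1.4.5-p1 and compared groups with DESeq2. They deposited 1 table of RPKM per gene and library. Its 6 columns of the authors' own comparisons, log2 fold changes and p-values, were not used. Library totals and whole reads were worked out from the steps between RPKM values: all 15451 genes above 0 gave whole reads (the smallest that matched, to within 1e-05 of a read plus 2e-08 of the reads). RPKM was scaled by library median ratio, 0.1 was added, log2 was taken and genes at 1 RPKM or more in at least 3 libraries (9745) were fitted in limma 3.58.1 (R 4.3.3, mean-variance trend, 1 fit over 12 libraries), with two-sided tests, 95% intervals and Benjamini-Hochberg adjustment over all genes tested at 0.05. Fold changes are on this log2(RPKM + 0.1) scale, which understates those of low genes. Of the planned cell type markers, 2 are not reported here and were left out of the marker counts and sums. The code was tested on simulated data. Members and lists were chosen with earlier results of these data known. Named beside the 5 members were up to 4 genes of each list with the largest change among those called in either IACS comparison, Mlxipl, Slc2a1, Slc2a3, Hk2 and Txn1 in any case, and the 5 genes most like Txnip; other genes named were chosen after their values were seen. Alternatives changed the pseudocount, filter, scaling, trend, groups in the fit, library total and test (voom on the recovered reads), added a replicate block, and left out each library in turn. Reads did not rise in proportion to library total for all genes: within groups the median slope of log2 reads on log2 total was 1.36 at 0.05 to 0.1 reads per base, 1.25 at 0.1 to 0.2, 1.1 at 0.2 to 0.3 reads per base, 0.91 at 0.3 to 0.5, 0.59 at 0.5 to 1 and 0.18 above 1. Txnip had 0.345 reads per base (slope 1.2), Mlx 0.218 (1.15), Mlxip 0.06 (1.5) and Arrdc3 0.038 (0.98).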

Additional observations from a re-analysis of the deposited data

Results flagged for a closer look

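Hk3, the myeloid hexokinase, was the gene of these lists whose response to IACS differed between cells with and without OHT by the interaction test (log2 1.041, limma adjusted p = 0.0015). IACS gave a log2 difference of 0.15 (adjusted p = 0.21) without OHT and 1.20 with it. The interaction passed in all 22 alternatives, between 0.88 and 1.13. Its level with both compounds (8.42 RPKM) remained below that of untreated cells (15.3 RPKM).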

How the results depend on the processing

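Each result was refitted under 23 alternatives (22 for the interaction; Arrdc3 had no value where 5 RPKM was required, and Arrdc4 none anywhere). Of 451 refitted values of the 4 tested genes 435 kept direction and side of the threshold or stayed uncalled, 13 lost and 3 gained a call, and no called value changed sign. Txnip and Arrdc3 kept their calls in every alternative that could be fitted: Txnip between 0.36 and 0.45 with OHT, -0.39 and -0.29 with IACS and -0.66 and -0.58 in OHT_IACS against OHT, Arrdc3 between 0.65 and 0.86 with IACS. The exceptions were these, and their cause was not tested. Mlxip with OHT lost its call at 0.31 with no filter (adjusted p = 0.078), with the replicate block (0.056), with no mean-variance trend (0.059) and with only the groups compared (0.057), and at 0.41 with the library total as covariate (0.059); leaving out a library gave 0.18 to 0.41, and 8 of the 12 ended the call. Over all its alternatives adjusted p ran from 0.0068 to 0.17. Mlxip in OHT_IACS against OHT ranged from 0.10 to 0.32 with 1 library left out, and Txnip in OHT_IACS against IACS from 0.081 to 0.175. Genes called with OHT went from 3546 to 2351 with the library total as covariate. Leaving out a library gave 951 to 1809 genes for IACS against untreated (1548 with all; 951 without untreated replicate 1, 998 without untreated replicate 2, 1026 without IACS replicate 3) and 1524 (without OHT_IACS replicate 3) to 2951 for OHT_IACS against OHT (2310). The 14 interaction genes became 7 with no filter, 5 with RPKM as deposited, 34 with quantile normalization, 7 with the replicate block, 5 with the library total and 25 with voom, and 3 to 130 with a library left out, the most without OHT replicate 2. Of the 14, 100% were higher, and of the 34, 85.3%. Replicate numbers did not pair the libraries: deviations of equal numbers correlated between -0.172 and 0.104, and 2 of 12 libraries were best matched by their own number. Depth limits Arrdc4, Mlxipl and Arrdc5, and genes with many reads per base may have compressed differences.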

Other observations

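The genes beside Arrdc4 on chromosome 7 were looked up after its reads proved to be 0, in the RefSeq order of GRCm38.p6. On one side Fam169b had a mean of 0.0612 RPKM, Pgpep1l had at most 1 read and Igf1r, the receptor of insulin-like growth factor, stood at 2.87 RPKM, between 2.19 and 3.27. On the other side Nr2f2 and Mctp2 had at most 1 read in any library and Rgma had 0. So Igf1r alone of these 6 neighbours was above 1 RPKM.

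In place of Arrdc4, the genes most like Arrdc3 over the 12 libraries were also listed, a choice made after seeing the data. They were Zfp317 (Pearson r = 0.98), Gpr171 (0.97), Stx8 (0.97), the Fc receptor gene Fcgr2b (0.96) and the glutamate receptor gene Gria3 (0.96). Fcgr2b had means of 1.09 RPKM untreated, 0.564 with OHT, 2.84 with IACS and 1.25 with both.

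Slc2a6, a carrier of the glucose transporter family, was among the genes that rose most with OHT in its list (log2 2.44), and gave 2.58 in OHT_IACS against IACS. Its log2 differences with IACS were -0.40 and -0.26, and neither passed. With 1 library left out the first ran from -0.62 to -0.21. It passed without IACS replicate 2 (limma adjusted p = 0.026). Slc2a9, a urate and hexose carrier, fell with OHT (log2 -1.15), and had no value in 4 of 23 alternatives. In the other 19 its difference ran from -1.32 to -0.52 and was called each time. Both genes passed the filter only through the groups where they were high. With no filter, the OHT differences had adjusted p of 7.3e-06 (Slc2a6) and 0.0012 (Slc2a9).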
